A study of Mus musculus with 6 samples.

Results

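The Schlafen family of M2c-polarized macrophages is described here as 7 protein-coding genes, *Slfn1*, *Slfn2*, *Slfn3*, *Slfn4*, *Slfn5*, *Slfn8* and *Slfn9*, of the 19309 genes in the count table. They were listed by symbol, and the family was selected with its difference between the genotypes already known, so that every fold change of a member is given as a description and without a p-value. RNA from 3 sEH-/- and 3 wild-type (WT) mice was sequenced, with 1 library per mouse. The sEH, or soluble epoxide hydrolase, is encoded by *Ephx2* and converts fatty acid epoxides to diols. The sEH-/- line (Ephx2tm1.1Arte x Gt(ROSA)26Sortm16(Cre)Arte) carries a constitutive deletion in all cells, and the methods of the study name C57BL/6N mice and describe strain-matched littermates, mostly female, with bone marrow taken at 8 to 10 weeks, while the background of the sEH-/- line is not given in the sources used here. Monocytes from the bone marrow of both genotypes matured over 7 days in medium with 15 ng/mL of M-CSF and the same amount of GM-CSF. IFN-γ (1 ng/mL) and LPS (10 ng/mL) then turned them into M1 macrophages, and TGF-β1 (10 ng/mL) turned these into M2c macrophages. The labels give 24 h for the first and 48 h for the second of these steps, whereas the methods give 12 h for the first and 24 h or 48 h for the second. All 6 libraries therefore had been exposed to IFN-γ and LPS, and no library of unstimulated cells was compared. The libraries held between 4400197 and 6096440 counts. *Ephx2* was counted 4, 2 and 1 times in sEH-/- and 26, 49 and 57 times in WT libraries, so that each library matched its label.

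Schlafen proteins are a vertebrate family that shares a conserved N-terminal part, the Slfn box, next to an AlbA-type domain that is related to RNA binding. The mouse genes are sorted by size into a short group (*Slfn1* and *Slfn2*), an intermediate group (*Slfn3* and *Slfn4*) and a long group with a helicase-like C-terminal part (*Slfn5*, *Slfn8* and *Slfn9*). Several members are induced by type I interferon and by LPS in macrophages. Some bind or cut tRNA, others hold T cells and monocytes in a quiescent state, and *Slfn4* is a marker of immature and regulatory myeloid cells.

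The 7 genes lie in one cluster on chromosome 11 of mm10, from 82951349 to 83215154, which spans 264 kb. From the lower to the higher coordinate their order is *Slfn5*, *Slfn9*, *Slfn8*, *Slfn2*, *Slfn1*, *Slfn4* and *Slfn3*. *Slfn8* and *Slfn9* are on the minus strand and the others are on the plus strand. In GENCODE M21 the coding sequence has 337 codons in *Slfn1* and 378 in *Slfn2*, 640 in *Slfn3* and 602 in *Slfn4*, 884 in *Slfn5*, and 910 in both *Slfn8* and *Slfn9*. In an alignment of the coding sequences, both pairs of direct neighbours *Slfn3* with *Slfn4* and *Slfn8* with *Slfn9* were near-identical. The former shared 92.3% and the latter 92.7% of aligned bases. Pairs among the short and intermediate members, other than *Slfn3* with *Slfn4*, had between 71.3% and 75.3%, and the remaining pairs between 57.6% and 65.5%.

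The promoters of the members were compared as well. RefSeq promoter windows (GRCm38.p6, 250 bases before to 50 bases after each start) were searched on both strands for the core of the interferon-stimulated response element (ISRE, GAAANNGAA, or TTCNNTTTC on the other strand). This motif was present in *Slfn5*, *Slfn8* and *Slfn9* and in 8.56% of all 32851 promoter windows. It was not found in the windows of *Slfn1*, *Slfn2*, *Slfn3* or *Slfn4*. The stretches around it are shown because they carry the interferon-type letters of the long members, with the motif in capitals and 20 bases on each side, read in the direction of the gene.
*Slfn5* (chr11:82951927-82951998, plus strand): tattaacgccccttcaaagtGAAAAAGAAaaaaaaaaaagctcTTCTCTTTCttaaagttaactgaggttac
*Slfn8* (chr11:83020829-83020877, minus strand): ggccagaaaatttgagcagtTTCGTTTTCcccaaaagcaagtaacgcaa
*Slfn9* (chr11:82991846-82991894, minus strand): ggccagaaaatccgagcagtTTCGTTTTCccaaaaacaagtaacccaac

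In *Slfn5* the motif occurred once on each strand, at positions -155 and -132 from the RefSeq start. The count table places the start of this gene at 82951349, ahead of the whole window (82951852 to 82952151). The matches in *Slfn5* thus lie before the RefSeq start but inside the gene as bounded in the count table. In *Slfn8* and *Slfn9* the motif began at -47 and -44, on the strand opposite to the gene, and the flanking bases of these near-identical genes were also alike. A further annotated start of *Slfn8* placed the same match at -135. The 4 short and intermediate members shared another run of letters, ACTTCCTGG (CCAGGAAGT on the other strand), which was chosen after the promoters had been seen and contains the core bound by ETS factors such as PU.1. This run occurred in 0.843% of all promoter windows, but nothing is read from that share, since the letters were taken from the members' own windows. The core alone, GGAA or TTCC, was also in the windows of *Slfn5*, *Slfn8* and *Slfn9*, so it does not divide the family. The full run began at -74 in *Slfn1*, -55 in *Slfn2*, -42 in *Slfn3* and -73 in *Slfn4*. The stretches are printed to show how far the likeness reaches, with the shared letters in capitals.
*Slfn1* (chr11:83116726-83116774, plus strand): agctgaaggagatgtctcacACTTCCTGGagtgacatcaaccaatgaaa
*Slfn2* (chr11:83065037-83065085, plus strand): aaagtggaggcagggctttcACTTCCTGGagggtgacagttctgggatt
*Slfn3* (chr11:83191268-83191316, plus strand): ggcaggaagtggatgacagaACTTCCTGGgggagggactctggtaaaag
*Slfn4* (chr11:83175093-83175141, plus strand): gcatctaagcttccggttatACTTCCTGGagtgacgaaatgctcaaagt

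The letters searched for the interferon-γ activated site (GAS core, TTCNNNGAA, the same on both strands), for NF-κB (GGGANTTTC, or GAAANTCCC) and for GLI factors (GACCACCCA, or TGGGTGGTC) were in 8.3%, 1.11% and 0.253% of all windows, and in no window of a member. A match describes letters and is not evidence of a bound site, and the absence of a match concerns this window only.

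For the genotype comparison, counts were scaled to a library of 1000000 counts (CPM) with TMM library sizes, and edgeR's quasi-likelihood test was run on all 13785 genes that had over 5 counts in the mean library. All 7 members were among these genes. A gene was called where the Benjamini-Hochberg adjusted p was below 0.05 and the change was more than 1.5-fold, and 2.61% of all tested genes were called, 1.51% higher and 1.10% lower in sEH-/- cells. Of the 7 members, 2 were called, *Slfn4* and *Slfn9*, both higher in sEH-/- macrophages. Without the fold threshold *Slfn8* was added, which made 3 members, where 2.39% of all tested genes were past the adjusted p alone and higher. All 7 members had a log2 fold change (sEH-/- over WT) above 0, with a median of 0.40 and a range from 0.17 to 1.06, and 49.8% of all tested genes were above 0. In 5 members the 3 sEH-/- libraries lay above the 3 WT libraries, which was the case for 11.8% of all tested genes. The members were selected on this contrast, so nothing is read from these counts.

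**Figure D1:**
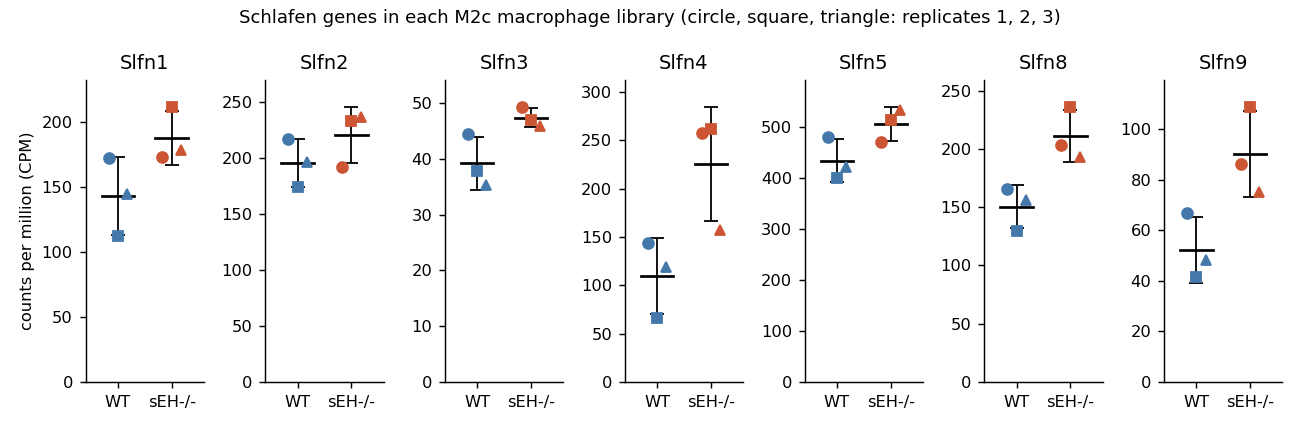
CPM of the 7 members in each library, with 1 panel per gene, linear axes that start at 0, a horizontal bar for the mean and whiskers for the SD (n = 3 mice per genotype). In *Slfn4*, where WT libraries reach 143 CPM and sEH-/- libraries begin at 158 CPM, the groups are apart, whereas in *Slfn2* and *Slfn5* the groups overlap.

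*Slfn4* (ENSMUSG00000000204, 83175186 to 83190216, plus strand), the intermediate member known from immature myeloid cells, showed the largest fold change of the family. Its counts were 1505, 1295 and 680 in sEH-/- and 652, 407 and 666 in WT libraries. This gave 258, 261 and 158 CPM in sEH-/- and 143, 66.0 and 119 CPM in WT libraries. The groups did not overlap, but sEH-/- replicate 3 lay much nearer to the WT libraries than to the other sEH-/- libraries, and WT replicate 2 was far below the rest. The mean was 226 ± 58.8 CPM (SD, n = 3) in sEH-/- and 110 ± 39.6 CPM (SD, n = 3) in WT cells, and the log2 fold change was 1.06 (SE 0.25). The call was lost without sEH-/- replicate 1 or 2 and without WT replicate 2 or 3, and the log2 fold change then lay between 0.79 and 1.13. It was also lost in DESeq2, in limma-voom and when the library total entered as a covariate.

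*Slfn3* (ENSMUSG00000018986, 83191330 to 83215154, plus strand) is the neighbour and near-identical copy of *Slfn4* and is known from T cells and from the differentiation of intestinal epithelium. It was counted 288, 233 and 198 times in sEH-/- and 202, 233 and 197 times in WT libraries. In CPM this was 49.3, 47.0 and 45.9 against 44.4, 37.8 and 35.3, so that the groups were apart by a narrow margin. The log2 fold change was 0.28 (SE 0.11), and *Slfn3* was not called. The ratio of the *Slfn4* level to the *Slfn3* level, each per kilobase of exon, was 4.50, 4.78 and 2.96 in sEH-/- and 2.78, 1.50 and 2.91 in WT libraries, without overlap.

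Among the long members, *Slfn9* (ENSMUSG00000069793, 82978390 to 82991830, minus strand) changed most. Together with *Slfn8* it is related to human SLFN13, which cuts tRNA. *Slfn9* counts were 505, 539 and 325 in sEH-/- and 304, 257 and 269 in WT libraries, which corresponded to 86.4, 109 and 75.4 CPM and to 66.8, 41.7 and 48.2 CPM, respectively. Every sEH-/- library was above every WT library, with sEH-/- replicate 3 and WT replicate 1 nearest to each other. The means were 90.2 ± 17.0 CPM (SD, n = 3) and 52.3 ± 13 CPM (SD, n = 3), with a log2 fold change of 0.80 (SE 0.17). The call was lost without sEH-/- replicate 2 or WT replicate 2 or 3, with log2 fold changes from 0.66 to 0.75, and with the library total as a covariate.

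*Slfn8* (ENSMUSG00000035208, 83002158 to 83020810, minus strand) had 1189, 1168 and 833 counts in sEH-/- and 753, 798 and 872 in WT libraries. Scaled to library size these were 203, 236 and 193 CPM in sEH-/- and 166, 130 and 156 CPM in WT cells, without overlap. Its log2 fold change of 0.49 (SE 0.11) was under 1.5-fold. The ratio of *Slfn9* to *Slfn8* per kilobase was 0.291, 0.317 and 0.268 in sEH-/- and 0.277, 0.221 and 0.212 in WT libraries, and these values overlapped.

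*Slfn5* (ENSMUSG00000054404, 82951349 to 82964840, plus strand), a nuclear member known to restrain interferon-driven transcription, was the member with the most counts. It had 2747, 2551 and 2304 counts in sEH-/- and 2190, 2466 and 2349 in WT libraries. The CPM values, 470, 515 and 534 against 482, 400 and 421, overlapped. The log2 fold change was 0.22 (SE 0.10), and *Slfn5* was not called.

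The short members had small fold changes. *Slfn1* (ENSMUSG00000078763, 83116849 to 83122670, plus strand), which halts T cell growth when overexpressed, had 173, 211 and 179 CPM in sEH-/- and 172, 112 and 145 CPM in WT libraries. The lowest sEH-/- and the highest WT library were almost equal, and the log2 fold change was 0.40 (SE 0.14). *Slfn2* (ENSMUSG00000072620, 83065112 to 83070678, plus strand) maintains the quiescence of T cells and monocytes and protects tRNA from cleavage by angiogenin. It had 192, 233 and 236 CPM in sEH-/- and 217, 174 and 196 CPM in WT libraries, which overlapped, and the log2 fold change of 0.17 (SE 0.10) was the smallest of the family. Neither gene was called.

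**Figure D2:**
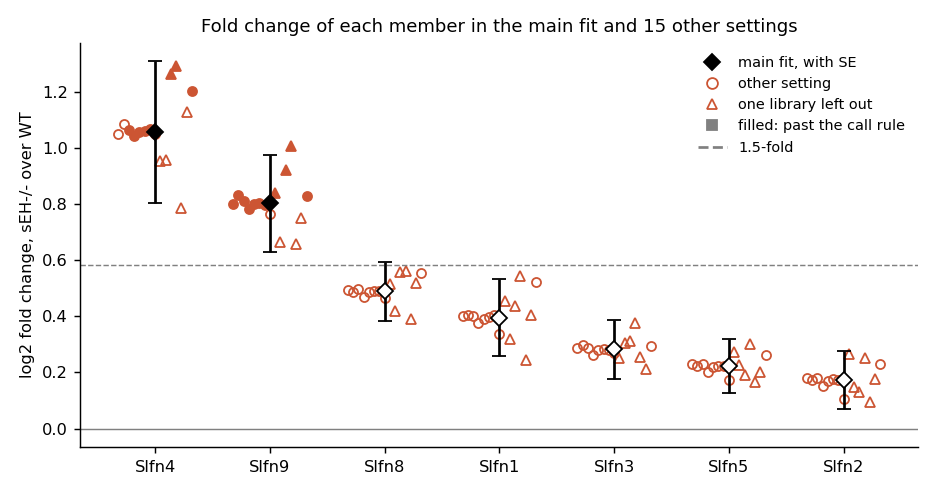
Log2 fold change (sEH-/- over WT) of each member in the main fit (diamonds, with SE) and in 15 other settings (circles, or triangles where 1 library was left out), with filled symbols past the call rule and a dashed line at 1.5-fold. *Slfn4* and *Slfn9* stay above the line in all settings but are not called in all of them, and *Slfn5* and *Slfn2* lie between 0.09 and 0.30.

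The levels of the members differed far more between genes than between genotypes. As CPM per kilobase of exon, the WT mean was 118 ± 12.8 for *Slfn2*, 76.7 ± 16.1 for *Slfn1*, 68.6 ± 6.68 for *Slfn5*, 36.8 ± 4.58 for *Slfn8*, 27.7 ± 9.98 for *Slfn4*, 11.5 ± 1.38 for *Slfn3* and 8.76 ± 2.19 for *Slfn9* (SD, n = 3). In this order the ranges of the 3 WT libraries overlapped between *Slfn1* and *Slfn5*, between *Slfn8* and *Slfn4*, and between *Slfn3* and *Slfn9*. Compared within each WT library, *Slfn8* was nonetheless above *Slfn4* and *Slfn3* above *Slfn9* every time. *Slfn1* was below *Slfn5* in WT replicate 2 (60.24 against 63.25) and above it in the others. The ranges of *Slfn2* and *Slfn1*, of *Slfn5* and *Slfn8*, and of *Slfn4* and *Slfn3* did not overlap in WT libraries. In sEH-/- cells *Slfn4* (56.9 ± 14.8) and *Slfn8* (51.5 ± 5.43) changed places, as did *Slfn9* (15.1 ± 2.85) and *Slfn3* (13.9 ± 0.502), each within overlapping ranges. The level summed over the 7 members was 426, 490 and 435 CPM per kilobase in sEH-/- and 399, 294 and 349 in WT libraries. *Slfn4* made up 15.3%, 13.4% and 9.14% of this sum in sEH-/- and 9.05%, 5.66% and 8.64% in WT libraries, whereas the share of *Slfn2* was 27.1%, 28.6% and 32.6% against 32.6%, 35.5% and 33.8%.

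**Figure D3:**
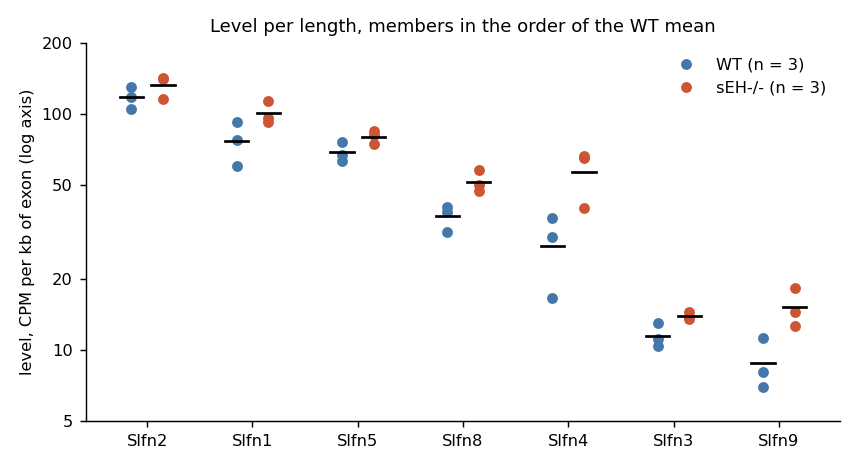
Level of each member in CPM per kilobase of exon on a log axis, with 1 point per library (n = 3 mice per genotype) and a bar at the mean. *Slfn2* leads with 118 in WT and 132 in sEH-/- cells and *Slfn9* is lowest in WT cells with 8.76.

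The density of the counts along the exons differed between members. The authors removed duplicate reads, and the highest density of any gene was 0.972 counts per exonic base. Over the tested genes with more than 0.4 counts per base, the log2 count rose by a median of 0.389 for each unit of the log2 library total, compared with 1.28 over genes with 0.02 to 0.1 counts per base. The members with the highest density were *Slfn2* (0.646 counts per base), *Slfn1* (0.457) and *Slfn5* (0.385), followed by *Slfn8* (0.229), *Slfn4* (0.219), *Slfn3* (0.066) and *Slfn9* (0.0614). The members' own slopes did not follow their density, with 0.03 for *Slfn1*, 0.26 for *Slfn2* and 0.41 for *Slfn5*, and 0.42 for *Slfn8*, -0.14 for *Slfn4*, 0.72 for *Slfn3* and -0.09 for *Slfn9*, each over the 6 libraries of both genotypes. The part of the density in the size of the members' differences, and in their levels and shares of the family sum, was not tested. After a correction that assumed a limit of 1 count at each exonic base, an alternative chosen after seeing the data, the log2 fold change was 1.21 for *Slfn4*, 0.83 for *Slfn9*, 0.56 for *Slfn8*, 0.52 for *Slfn1*, 0.30 for *Slfn3*, 0.26 for *Slfn5* and 0.23 for *Slfn2*, and *Slfn4* and *Slfn9* were the members called. Within the WT group, the CPM of 6 members, all except *Slfn3*, fell from the library with the smallest to the one with the largest total, an order found in 21.7% of all tested genes. In the sEH-/- group only *Slfn2* and *Slfn5* had this order. The part of the library total in the differences between WT libraries was not tested.

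**Figure D4:**
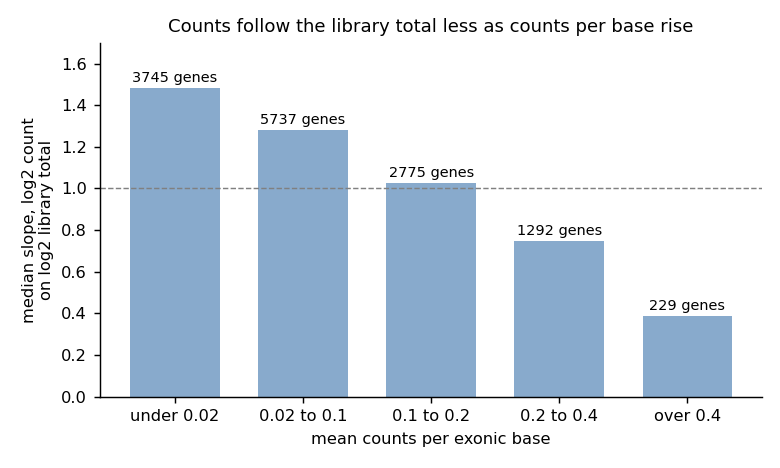
Median slope of the log2 count on the log2 library total over 6 libraries, for tested genes grouped by their mean counts per exonic base, with a dashed line at a slope of 1. The slope falls from 1.48 in 3745 genes under 0.02 counts per base to 0.389 in 229 genes over 0.4 counts per base.

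Reads that fit several places had been removed by the authors, which touches genes with near-identical copies. Of the 75-base windows in the annotated exons, all in *Slfn1* and *Slfn5*, 98.3% in *Slfn2*, 98.7% in *Slfn3*, 98.2% in *Slfn4*, 93% in *Slfn8* and 94.1% in *Slfn9* were found in no other Schlafen gene. *Slfn8* and *Slfn9* shared most windows with *Slfn10-ps*, a transcribed pseudogene between *Slfn8* and *Slfn2*. Against all genes, 93.2% of the windows in *Slfn3*, 96.9% in *Slfn4* and 98.5% in *Slfn5* were unique. Counts of *Slfn8*, *Slfn9*, *Slfn3*, *Slfn4*, *Slfn2* and *Slfn5* may be too low for this reason. The shares do not bound the loss, because only annotated transcripts were searched and not the whole genome. For *Slfn10-ps* the share of unique windows was not computed. *Slfn10-ps* (ENSMUSG00000072621) had 125, 108 and 84.4 CPM in sEH-/- and 102, 74.0 and 78.9 CPM in WT libraries, which overlapped, and a log2 fold change of 0.33 (SE 0.15) that was not called. The antisense gene *Slfn5os* (ENSMUSG00000086327), which overlaps *Slfn5* on the other strand, had 27, 21 and 24 counts in sEH-/- and 9, 19 and 14 in WT libraries, with a log2 fold change of 0.90 (SE 0.29), and was not called. No other row of the table had a symbol that begins with Slfn.

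The pathway that induces Schlafen genes was compared next. Type I interferon binds IFNAR, the kinases JAK1 and TYK2 phosphorylate STAT factors such as STAT2, and a complex of these with IRF9 binds the ISRE. Of 50 interferon-stimulated genes, all tested, 6 (12%) were called higher and 0 lower in sEH-/- macrophages with edgeR, beside 1.51% of all tested genes called higher. At an unadjusted p below 0.05 in edgeR, 28 genes of the list were higher and 1 lower. Of all 13785 tested genes, 1536 were higher and 1683 lower at that threshold. DESeq2 and limma-voom called 0 genes of the list lower. The median log2 fold change was 0.29, with 49 genes above 0, where the median of all tested genes was -0.0009. In 23 of the 50 genes (46.0%) the libraries of the genotypes did not overlap and were higher in sEH-/- cells, beside 11.8% of all tested genes. Relative to the mean of the WT libraries, the median over the 50 genes was 0.26, 0.35 and 0.25 in sEH-/- libraries and 0.18, -0.18 and 0.01 in WT libraries. The median over the 7 Schlafen genes was 0.33, 0.58 and 0.34 in sEH-/- and 0.19, -0.21 and 0.01 in WT libraries.

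Of the called interferon-stimulated genes, *Oas2*, whose product makes oligoadenylates on sensing double-stranded RNA, had 173 ± 35.7 CPM (SD, n = 3) in sEH-/- and 87.8 ± 26.2 CPM (SD, n = 3) in WT cells, with a log2 fold change of 0.99 (adjusted p = 0.0300 from edgeR, SE 0.20). *Cmpk2*, a mitochondrial nucleotide kinase, had one of 0.97 (adjusted p = 0.0348, SE 0.21), *Oas1g* one of 0.59 (adjusted p = 0.0473, SE 0.14) and *Ifit3b*, of the family that binds viral RNA, one of 1.39 (adjusted p = 0.0248, SE 0.26). Each was lost as a call without sEH-/- replicate 2 and without WT replicates 2 and 3 in turn, and also with the library total as a covariate. *Cmpk2* and *Oas1g* lost it without sEH-/- replicate 1 too, and *Oas1g* also in limma-voom, without TMM factors and with the replicate block, so that it was called in 7 of 15 alternatives. Over all alternatives the adjusted p ranged from 0.00567 to 0.117 for *Ifit3b* and from 0.00764 to 0.212 for *Oas1g*.

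Genes upstream of these were compared in the same way. Of 34 genes of interferon production and signaling, 30 were tested, and *Ikbke*, a kinase that phosphorylates IRF3, was the 1 called higher (log2 fold change 0.65, adjusted p = 0.0297 from edgeR, SE 0.13), with 0 called lower, as with DESeq2 and limma-voom. That is 3.33% called higher, beside 1.51% of all tested genes. At an unadjusted p below 0.05 the list had 12 genes higher and 2 lower, beside 1536 and 1683 of all 13785 tested genes. The log2 fold change was above 0 in 25 of the 30 genes, and in 10 (33.3%) the libraries did not overlap and were higher in sEH-/- cells, beside 11.8% of all tested genes. The call of *Ikbke* was lost without sEH-/- replicate 2 or WT replicate 2 or 3. The median log2 fold change of the list was 0.16. *Stat2* had 402 ± 29.2 CPM in sEH-/- and 302 ± 37.1 CPM in WT cells (SD, n = 3) and did not pass (log2 fold change 0.41, adjusted p = 0.0508 from edgeR, SE 0.10), nor did *Irf9* (0.16, adjusted p = 0.265, SE 0.08), *Irf7* (0.18, adjusted p = 0.352, SE 0.11) or *Irf1* (0.09, adjusted p = 0.619, SE 0.10). Over all alternatives the adjusted p of *Stat2* ranged from 0.00149 to 0.243. *Ifnb1* was listed with 0 counts in all 6 libraries.

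**Figure D5:**
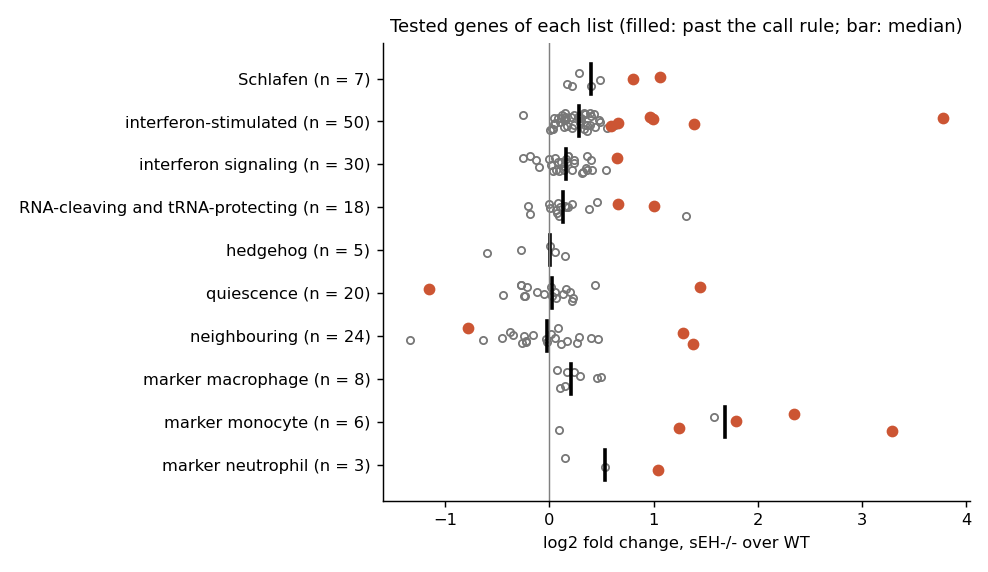
Log2 fold change (sEH-/- over WT) of the tested genes of each list, with 1 point per gene, filled where called, and a bar at the median of the list. The medians are 0.40 for the 7 Schlafen genes, 0.29 in the list of 50 interferon-stimulated genes, 0.16 in that of 30 interferon signaling genes and -0.03 in that of 24 neighbouring genes.

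Schlafen proteins act on tRNA, so genes that cut RNA or protect tRNA were listed as well. Of 20 such genes, 18 were tested and 2 (11.1%) were called higher and 0 lower with edgeR, beside 1.51% and 1.10% of all tested genes, and 0 lower with DESeq2 and limma-voom. At an unadjusted p below 0.05, 5 were higher and 1 lower, beside 1536 and 1683 of all 13785 tested genes. The median log2 fold change was 0.13, and in 7 of the 18 (38.9%) the libraries did not overlap and were higher in sEH-/- cells, beside 11.8% of all tested genes. *Ang*, the angiogenin against which SLFN2 shields tRNA, had 91, 94 and 71 counts in sEH-/- and 45, 46 and 46 in WT libraries. Its level was 17.0 ± 1.76 CPM (SD, n = 3) in sEH-/- and 8.53 ± 1.24 CPM (SD, n = 3) in WT cells, with a log2 fold change of 1.0 (adjusted p = 0.0261 from edgeR, SE 0.19). *Isg20*, an interferon-induced exonuclease that is also in the list of interferon-stimulated genes, had one of 0.66 (adjusted p = 0.0405, SE 0.15). The calls of *Ang* and *Isg20* were lost with the replicate block, without sEH-/- replicate 2 and without WT replicates 2 and 3 in turn, and that of *Isg20* also without sEH-/- replicate 1 and with the library total as a covariate.

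Hedgehog signaling through GLI1 induces *Slfn4* in myeloid cells of the stomach. *Gli1* was listed with 0 counts in all sEH-/- libraries and with 0, 5 and 1 counts in WT libraries, and was not tested. Of 14 hedgehog genes, 5 were tested and 0 were called with edgeR, DESeq2 or limma-voom. At an unadjusted p below 0.05 in edgeR, 0 were higher and 1 was lower, *Kif7*, which was named after its value was seen. Of all 13785 tested genes, 1536 were higher and 1683 lower at that threshold. The receptor *Ptch1* had a log2 fold change of -0.27 (adjusted p = 0.383, SE 0.17) and the inhibitor *Sufu* of 0.005 (adjusted p = 0.982, SE 0.083), a direction that turned in 3 alternatives.

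Of 20 genes of quiescence and cell cycle entry, the state that *Slfn2* guards, 1 was called higher and 1 lower with edgeR. Of all tested genes, 1.51% were called higher and 1.10% lower. The median log2 fold change of the list was 0.02. The libraries of the genotypes did not overlap in 2 genes that were higher and 5 that were lower in sEH-/- cells. The same held for 1629 higher and 1996 lower genes among all 13785 tested genes. At an unadjusted p below 0.05 in edgeR, 4 genes of the list were higher and 6 lower, beside 1536 and 1683 of all 13785 tested genes. *Myc*, a driver of growth, rose from 6.02 ± 1.86 CPM in WT to 16.1 ± 3.87 CPM in sEH-/- cells (SD, n = 3; log2 fold change 1.44, adjusted p = 0.0266 from edgeR, SE 0.28). *Cdkn2c*, a CDK inhibitor, fell from 17.5 ± 2.02 to 7.93 ± 1.92 CPM (SD, n = 3; log2 fold change -1.16, adjusted p = 0.0244 from edgeR, SE 0.21). Both calls were lost without sEH-/- replicate 2 and without WT replicates 2 and 3 in turn.

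Genes beside the cluster were compared as well. Of 24 tested genes within 0.5 Mb of its ends, 2 were called higher and 1 lower, beside 1.51% and 1.10% of all tested genes, and the median log2 fold change was -0.03. The chemokine genes *Ccl3* and *Ccl4* were higher in sEH-/- cells, with log2 fold changes of 1.29 (adjusted p = 0.0179, SE 0.21) and 1.38 (adjusted p = 0.0162 from edgeR, SE 0.22). The transcribed pseudogene *Gm11427*, which begins at 83224454 next to *Slfn3*, was lower, with 31.7 ± 9.26 CPM in sEH-/- and 53.8 ± 8.27 CPM in WT cells (SD, n = 3; log2 fold change -0.78, adjusted p = 0.0477 from edgeR, SE 0.19). Without WT replicate 2 or 3, 0 of the 24 genes were called, and *Gm11427* lost its call also without sEH-/- replicate 1 or 2 and with the library total as a covariate.

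The markers of the cells were given beside these values because *Slfn4* is also expressed in monocytes and neutrophils. All 8 macrophage markers were detected, with a sum of 1985 to 2457 CPM in sEH-/- and 1744 to 2204 CPM in WT libraries, and *Adgre1*, the F4/80 gene, had 440 ± 45.1 and 358 ± 46.1 CPM (SD, n = 3), respectively. Of 7 monocyte markers, 6 were tested and 4 (66.7%) were called higher in sEH-/- cells, beside 1.51% of all tested genes. The called markers were *Ly6c2* (log2 fold change 1.24, adjusted p = 0.0105 from edgeR, SE 0.17), *Hp* (1.79, adjusted p = 0.00581), *Plac8* (2.35, adjusted p = 0.0266) and *F13a1* (3.28, adjusted p = 0.0482). *Ccr2* (1.58, mean count 5.17) and *Chil3* (0.089, groups overlapping) were not called. All 7 markers, called or not, summed to 286 to 421 CPM in sEH-/- and 214 to 274 CPM in WT libraries. *Chil3* had by far the most counts of the list, with a mean of 1062. It encodes Ym1, which the paper counts among M2a macrophage markers, so that the sum is not one of monocyte genes alone. Of 12 neutrophil markers, 9 had a row and 3 had a mean of more than 5 counts. The 9 summed to 357 to 457 CPM in sEH-/- and 298 to 354 CPM in WT libraries. *Mmp8* had by far the most counts of this list, with a mean of 1448 and a log2 fold change of 0.155 that was not called. *S100a8* (log2 fold change 0.537, mean count 118), higher in sEH-/- libraries without overlap, was not called either. Of the 3 neutrophil markers with a mean of more than 5 counts, *Lcn2* was called higher (log2 fold change 1.05, adjusted p = 0.0153 from edgeR, SE 0.16). That is 33.3%, beside 1.51% of all tested genes. The calls of these monocyte and neutrophil markers were lost without WT replicate 3, those of *Plac8*, *F13a1* and *Lcn2* also without WT replicate 2, and that of *F13a1* also without WT replicate 1, in limma-voom and with the library total as a covariate. *F13a1* had 20, 95 and 14 counts in sEH-/- and 5, 4 and 5 in WT libraries, so that its value rested on sEH-/- replicate 2, without which the log2 fold change was 1.94 and not called. The defining markers *Ly6g*, *Cd3e*, *Ncr1* and *Flt3* had no row in the table and were not analysed here. The sums were at most 0.202 CPM for B cell and 0.807 CPM for NK cell markers, 9.28 to 15.1 CPM in sEH-/- and 14.5 to 18.6 CPM in WT libraries for T cell markers, of which *Lck* alone was tested, 27.0 to 57.7 and 42.2 to 58.9 CPM for dendritic cell markers, and 5.33 to 14.7 and 3.74 to 52.7 CPM for stromal markers. In bulk RNA, fewer cells of a type and less RNA per cell cannot be told apart, and the part of monocyte-type cells in the difference in *Slfn4* was not tested.

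Within a genotype, the genes whose library-to-library pattern was most like that of a member were sought among 10270 other genes that reached a mean count of 50. Pearson's r of log2 CPM over the 6 libraries, with the genotype means taken out, served as a description. For *Slfn4* these were *Ehbp1l1* (r = 0.995), *Acin1* (0.992) and the calcium channel gene *Orai1* (0.992). For *Slfn9* they were *Synj2bp* (0.998), *Arhgap30* (0.997) and *Trim12a* (0.996), and for *Slfn5* they were *Tcirg1*, *Tgfbi* and *Ticam2* (0.999 each). The points share their libraries and depth, and only 6 libraries entered, so that between 27 and 75 genes came within 0.02 of these values.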

How the data were processed

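RNA of M2c macrophages from 3 sEH-/- and 3 WT mice was sequenced, with 1 library per mouse. Raw counts for 19309 genes were deposited by the authors, who trimmed reads with Trimmomatic, aligned them to mm10 with STAR, took out duplicate reads with Picard as well as reads of mitochondrial, ribosomal or several origins, and counted exonic reads on the annotated strand with featureCounts. The submitters' processing notes give Trimmomatic 0.39, STAR 2.7.7a, Picard 2.21.7 and featureCounts 1.6.5, and the methods give other releases of the last 3 tools. Labels and methods also differ on RNA input (1.5 and 1 μg) and library kit (mRNA and total RNA). No value had been normalized.

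Counts were tested with edgeR 4.0.16 (TMM, glmQLFit, glmQLFTest, no covariate; R 4.3.3), and checked with DESeq2 1.42.0 and limma 3.58.1. The tested genes held 99.8% of all counts. TMM factors lay between 0.982 and 1.03. The SE was derived from the fold change and the quasi-likelihood F value. The scripts were tested on simulated data. Chi-square over its degrees of freedom was 2.27 to 4.91 for pairs of libraries of 1 genotype, a check only for the same library under more than 1 label. Exonic lengths and coding sequences came from GENCODE M21, in which 19286 identifiers were found, and promoters from RefSeq (GRCm38.p6), in which all 7 members were matched. Coding sequences were compared because no protein table was used here.

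The members and lists were chosen with earlier results of these data known. Named genes are the members and other Slfn rows, *Ephx2*, *Ifnb1*, *Stat2*, *Irf9*, *Irf7*, *Irf1*, *Gli1* and *Ang*, the 4 called genes with the most counts of each list (2 where none was called), called neighbours, the 3 genes most like *Slfn4*, *Slfn5* and *Slfn9*, and defining markers, of which a few genes are not reported here. Alternatives were other tools, scalings and filters, a replicate block, the library total as a covariate, each library left out, no fold threshold, 50-base windows, the longest transcript, and the ceiling correction.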

Additional observations from a re-analysis of the deposited data

How the results depend on the processing

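The log2 fold changes of all 7 Schlafen genes stayed above 0 in each of the 15 alternatives, which 5 of them could hardly leave since their groups did not overlap, and lay between 0.79 and 1.29 for *Slfn4*, 0.66 and 1.01 for *Slfn9*, 0.39 and 0.56 for *Slfn8*, 0.24 and 0.55 for *Slfn1*, 0.21 and 0.38 for *Slfn3*, 0.17 and 0.30 for *Slfn5*, and 0.093 and 0.27 for *Slfn2*. The number of members called was 1 with DESeq2, 1 with limma-voom, 0 with the library total as a covariate and from 0 to 2 with a library left out. Genes called went from 360 to 171 with the covariate, 553 without the fold threshold, and from 6 (without WT replicate 3) to 625 (without WT replicate 1) with a library left out. Without WT replicate 2 there were 25, without sEH-/- replicate 2 there were 96 and without sEH-/- replicate 3 there were 570. The interferon-stimulated genes called were 1 with the covariate, 11 without the fold threshold and 0 to 9 with a library left out. With a library left out, calls went from 0 to 2 among interferon signaling genes, 0 to 2 among RNA-cleaving and tRNA-protecting genes (1 with the covariate), 0 to 3 among quiescence genes and 0 to 3 among neighbouring genes. The cause was not tested. The labels number the mice of both genotypes 1 to 3, and the deviations of same-numbered libraries correlated at -0.086, -0.268 and -0.038. These values show no pairing by number, but 3 values from libraries that also differ in their totals cannot exclude it. A replicate block called 234 genes, 2 Schlafen genes and 0 RNA-cleaving and tRNA-protecting genes. *Sufu* turned to -0.016 without TMM factors and to between -0.037 and 0.039 with a library left out, and *Col1a1* (-1.29 in the fit as reported) to between -1.78 and 0.044. Of 39 named genes, the other 37 kept their direction. With 50-base windows, 85.4% of *Slfn8* and 88.8% of *Slfn9* windows were unique in the family, and the longest transcript in place of all exons kept the order of the WT levels but parted the ranges of *Slfn3* and *Slfn9*. *Slfn5os*, with 9 to 27 counts, is limited by depth.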

Other observations

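The members did not all vary together within a genotype. With the genotype means taken out, Pearson's r of log2 CPM over the 6 libraries was 0.94 between *Slfn1* and *Slfn8*, 0.92 between *Slfn8* and *Slfn9*, 0.90 between *Slfn4* and *Slfn8* and 0.94 between *Slfn2* and *Slfn5*. It was 0.32 between *Slfn2* and *Slfn4* and 0.34 between *Slfn4* and *Slfn5*. *Slfn3* and *Slfn4*, which are near-identical neighbours, had an r of 0.47. The values describe 6 libraries that also differ in their totals, and *Slfn2* and *Slfn5* are 2 of the 3 members with the highest counts per exonic base. The other of these 3, *Slfn1*, had an r of 0.80 with *Slfn2*, 0.79 with *Slfn5* and 0.81 with *Slfn4*.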
